A study of Mus musculus with 23 samples.

Results

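The genes described here encode isoforms of 5 enzymes of glycolysis, and their rows were taken by symbol. They are the phosphofructokinase genes Pfkm, Pfkl and Pfkp, the aldolase gene Aldoa, the enolase genes Eno1 and Eno3, the phosphoglycerate mutase genes Pgam1 and Pgam2, and the lactate dehydrogenase genes Ldha and Ldhb. All 10 were present among the 32793 rows of the gene tables, and all 10 passed the filter on low counts that left 14187 genes for testing. The cells were C2C12, an established line of mouse myoblasts that stops dividing and fuses into contractile myotubes when serum is lowered. Poly(A) RNA was sequenced from control cells (WT) and from cells labelled Runx1KO (KO). Both genotypes were taken on day 0, in growth medium that holds fetal bovine serum at 20%, and on days 1, 3 and 6 in medium with 2% horse serum. The titles gave the last time as day 6 and the series text as day 5, and the titles were followed. The 8 groups held 3 libraries each except WT on day 0, with 2. No other agent or allele was named, and neither how the knockout was made nor whether it was 1 clone was given in the sources used here. The labels did not say whether replicates were separate cultures, so p-values measure the spread between these libraries, which may be technical.

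Glycolysis splits glucose into pyruvate, and several of its steps can be run by isoenzymes from different genes. Phosphofructokinase is a tetramer that commits sugar to the pathway, and Pfkm is its muscle subunit, Pfkl its liver subunit and Pfkp its platelet subunit. Aldolase cleaves the doubly phosphorylated sugar, phosphoglycerate mutase moves the phosphate, enolase makes phosphoenolpyruvate, and lactate dehydrogenase interconverts pyruvate and lactate. Adult skeletal muscle is known for Pfkm, Aldoa, the beta-enolase Eno3, the muscle mutase Pgam2 and, in fast fibres, Ldha, whereas Eno1 and Pgam1 are broadly expressed and Ldhb is the heart-type subunit.

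The promoters of 3 members are shown because Pgam2 had the steepest rise of the 10 genes while its partner Pgam1 changed little, and because Eno3, also a muscle isoform, did not follow Pgam2. Each run is the 250 bases before the RefSeq start in GRCm38.p6, the build called mm10 in the submitters' processing notes. Pgam2 lies on chromosome 11 from 5801637 to 5803796 (minus strand), and its window spans chr11:5803797-5804046. Pgam1 lies on chromosome 19 from 41911871 to 41918665 (plus strand), with the window chr19:41911621-41911870. Eno3 lies on chromosome 11 from 70653125 to 70662513 (plus strand), and the only start listed for it has the window chr11:70656926-70657175. The Eno3 window thus lies inside its locus, whereas the Pgam2 and Pgam1 windows lie just outside theirs. Capitals mark matches to the E-box CANNTG (the class of site bound by myogenic factors), the MEF2 motif and the hypoxia element ACGTG, each searched on both strands.
Pgam2: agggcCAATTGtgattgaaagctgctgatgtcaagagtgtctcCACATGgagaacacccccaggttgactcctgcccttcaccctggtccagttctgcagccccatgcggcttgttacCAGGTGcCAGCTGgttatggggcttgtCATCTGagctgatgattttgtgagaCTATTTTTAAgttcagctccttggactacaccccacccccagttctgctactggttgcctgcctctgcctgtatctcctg
Pgam1: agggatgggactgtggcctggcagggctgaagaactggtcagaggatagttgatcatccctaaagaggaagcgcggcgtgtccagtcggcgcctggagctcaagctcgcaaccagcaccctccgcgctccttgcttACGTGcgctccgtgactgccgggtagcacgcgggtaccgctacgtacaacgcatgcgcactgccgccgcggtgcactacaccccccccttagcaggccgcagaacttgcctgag
Eno3: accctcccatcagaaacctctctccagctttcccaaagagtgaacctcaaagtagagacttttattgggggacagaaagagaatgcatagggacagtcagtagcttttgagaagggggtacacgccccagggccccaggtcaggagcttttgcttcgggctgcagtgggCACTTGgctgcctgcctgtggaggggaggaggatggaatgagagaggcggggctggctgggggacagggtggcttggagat
The Pgam2 window held 5 CANNTG matches, at 245, 207, 132, 125 and 105 bases before the start. The match at 125 was also the form CAGCTG, and a MEF2 match lay 80 bases before the start. The Eno3 window held 1 CANNTG match, at 81 bases, and the Pgam1 window held none but had ACGTG at 114 bases. Over 32851 RefSeq starts, windows of the same length held at least 1 CANNTG in 66.2%, CAGCTG in 13.0%, the MEF2 motif in 2.92% and ACGTG in 16.6%. The 10 genes had 18 listed starts, of which 12 (7 genes) held CANNTG and 6 (4 genes) held ACGTG, while Pgam2 was the only one with a CAGCTG or a MEF2 match. For the Runx motif, TGTGGT was found before 1 of the 18 starts (Pfkp, 163 bases before its start) against 14.0% of all starts, and TGCGGT before none against 5.1%. These are letter matches, not measured binding.

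The libraries held 22197606 to 23684077 estimated counts each. Runx1, the gene named in the knockout label, went against that label: it ranged from 28.46 to 29.57 TPM (a transcript abundance normalised for transcript length and depth) in KO and from 20.12 to 21.17 in WT on day 0, and from 82.14 to 85.33 against 38.07 to 49.84 on day 6. Counts per gene do not show whether the transcript is intact, so genotypes below are as labelled. The cells carried the myoblast marker genes Myf5, Pax7, Myod1 and Des at every time, with sums of at least 948.7 TPM, mostly Des and Myod1. These genes differed between genotypes in opposite directions. On day 0 Myf5 was lower in KO (log2FC -1.43, adjusted p = 1.34e-11) and Des higher (0.68, adjusted p = 2.05e-05) in the edgeR fit described below. Myf5 and Pax7 were also lower on days 1 and 6, and Des was higher on each later day. The sum of 7 myotube marker genes was 2.26 to 2.47 TPM in WT and 3.35 to 3.61 in KO on day 0, and 1931 to 2400 in WT and 11290 to 13200 in KO on day 6. The adipocyte genes Adipoq and Cidec and the leukocyte gene Adgre1 had 0 counts in all 23 libraries, while the summed leukocyte list, mostly Cd68, reached 15.47 to 17.22 TPM in KO and 5.14 to 9.14 in WT on day 6. Csf1r of the same list went the other way, with means of 0.25 TPM in KO and 1.12 in WT (log2FC -2.04, adjusted p = 5.64e-05 in the edgeR fit described below). The adipocyte, osteoblast and endothelium lists summed to at most 1.88, 1.61 and 0.55 TPM. Of the neuron list, Snap25 had 0 counts throughout, but Tubb3 stood at 22.79 to 26.42 TPM in KO and 44.83 to 52.33 in WT on day 6. In the same fit the Tubb3 log2FC was 0.70 (adjusted p = 3.08e-05) on day 1, 0.31 (adjusted p = 0.0335) on day 3 and -0.83 (adjusted p = 5.34e-06) on day 6. Replicate 2 of KO day 1 stood apart from its replicates over all genes (chi-square per degree of freedom 61.35 and 61.13, against 3.102 to 27.38 for the other pairs). In replicate 3 of KO day 0, 19 of 20 glycolytic genes (the 10 members and 10 others) lay below the mean of the other replicates in log2 CPM, with a median log2 difference of -0.35. In replicate 3 of WT day 6 this held for 18 of 20, with a median of -0.205, and in replicate 2 of KO day 1 for 14 of 20, with a median of -0.212. Replicate 1 of KO day 0 had 19 of 20 above the mean of its replicates, with a median of 0.23.

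Pfkm, the muscle phosphofructokinase (chromosome 15, 98092589 to 98132447, plus strand), rose in both genotypes after serum was lowered and ended higher in KO. On day 0 it stood at 33.43 and 30.75 TPM in the WT libraries and at 33.87, 31.55 and 28.61 in KO. On day 3 it stood at 55.5, 53.77 and 58.01 in WT and at 82.74, 76.2 and 79.75 in KO. On day 6 it stood at 79.37, 76.63 and 90.58 in WT and at 164.04, 186.39 and 178.56 in KO. The genotypes overlapped on days 0 and 1, and every KO library lay above every WT library on days 3 and 6. In the quasi-likelihood test of edgeR, with Benjamini-Hochberg adjustment over all tested genes, the log2 fold change of KO over WT (log2FC, used with this sign below) was 0.02 (SE 0.09, adjusted p = 0.917) on day 0 and -0.04 on day 1. It was 0.66 (SE 0.08, adjusted p = 3.01e-07) on day 3 and 1.23 (SE 0.08, adjusted p = 7.18e-12) on day 6. Day 6 over day 0 gave a log2FC of 1.17 in WT and 2.38 in KO. The myotube marker sum was higher in every KO library on all 4 days, also on days 0 and 1, where Pfkm overlapped. In WT that sum was 2397 to 2586 TPM on day 3 and 1931 to 2400 on day 6, while Pfkm rose. The part of the marker sum in the Pfkm difference was not tested. In bulk RNA, more cells of a type and more RNA per cell cannot be told apart.

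**Figure D1:**
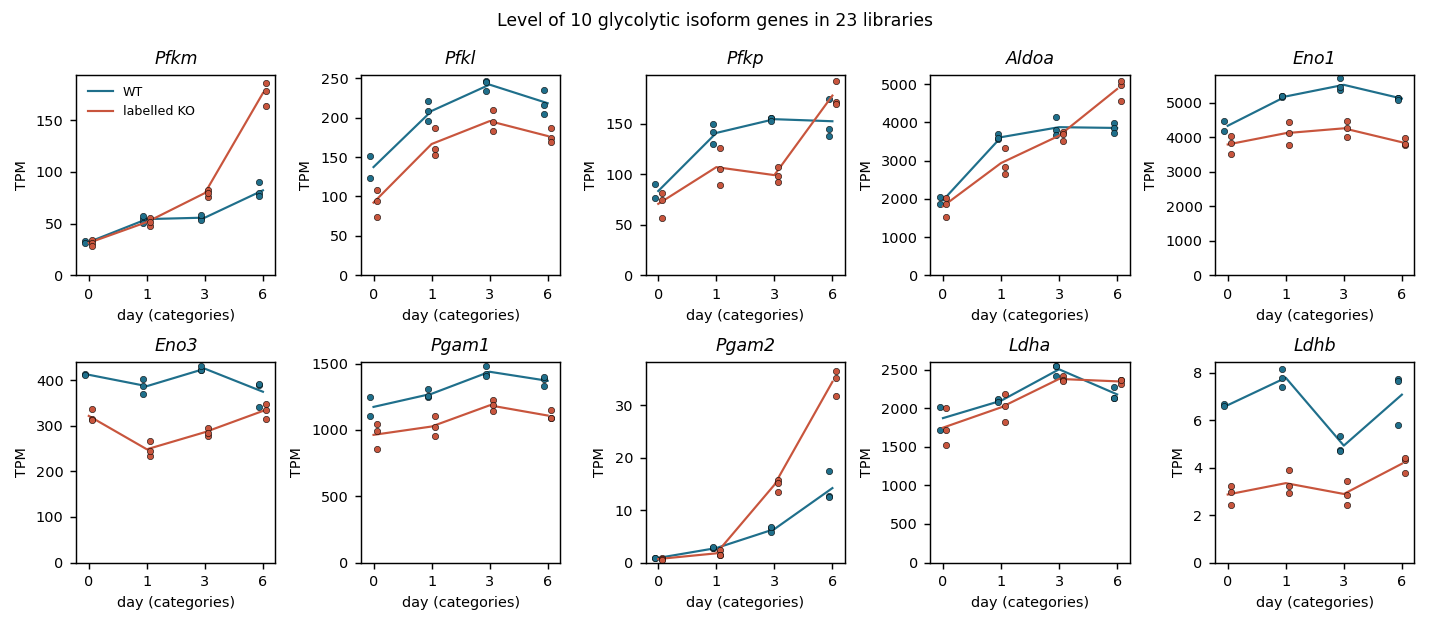
TPM of the 10 genes (vertical axes, from 0, scaled per gene) by day (horizontal axis, days as categories) in all 23 libraries; points are libraries, lines join group means, blue is WT and red is labelled KO. Pfkm and Pgam2 separated upward in KO on days 3 and 6, whereas Eno1, Pfkl, Pgam1 and Ldhb had every KO library below every WT library on all 4 days in TPM. In the count-based test, Eno1 on day 0, Pfkl on days 3 and 6 and Pgam1 on days 0, 3 and 6 were not called. On log2(TPM + 1) the median KO minus WT difference of all tested genes was itself -0.08 on day 3 and -0.10 on day 6. The share of all genes without overlap was not counted.

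The other phosphofructokinases behaved differently from Pfkm and from each other. Pfkl (chromosome 10, 77986947 to 78009807, minus strand) was lower in KO on day 0, at 108.06, 94.46 and 74.06 TPM against 151 and 123.56 in WT, with a log2FC of -0.51 (adjusted p = 0.00186), a call that was lost without WT day 0 replicate 1 (-0.38, adjusted p = 0.0849). It was also lower on day 1 (log2FC -0.28, adjusted p = 0.0247), while the values on days 3 and 6 were -0.16 and -0.18 and did not pass the test. On the TPM scale all KO libraries lay below all WT libraries on each of the 4 days for Pfkl. Without replicate 2 of KO day 1, the day 1 difference of Pfkl was -0.25 (adjusted p = 0.0566). Pfkp (chromosome 13, 6579874 to 6649060, minus strand) changed direction between days. On day 3 it was lower in KO, at 106.73, 98.04 and 92.54 TPM against 155.71, 155.49 and 152.22 in WT (log2FC -0.46, adjusted p = 0.000685), and it was lower on day 1 as well (-0.39, adjusted p = 0.003). On day 6 it stood at 191.9, 171.83 and 169.83 TPM in KO and 145.18, 137.98 and 174.13 in WT, with log2FC 0.36 (adjusted p = 0.00603). On day 6 the groups overlapped through replicate 3 of WT, and on log2(TPM + 1) the difference was 0.23 (adjusted p = 0.148, limma). In RefSeq, Pfkm overlaps Senp1, with group means of 7.6 to 22.31 TPM, and Pfkp overlaps Pitrm1, with 51.24 to 75.6 TPM.

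Because TPM is scaled by transcript length, the members of a family can be set side by side, and Pfkm took a larger part of phosphofructokinase transcripts in KO on every day. The Pfkm share of the family's summed TPM was 12.75% ± 0.82 (SD, n = 2) in WT and 16.3% ± 1.48 (n = 3) in KO on day 0. It was 13.47% ± 0.99 and 15.87% ± 0.76 on day 1, 12.34% ± 0.64 and 21.29% ± 1.02 on day 3, and 18.15% ± 0.37 and 33.25% ± 2.64 on day 6. On each day the lowest KO library lay above the highest WT library, by 15.01% against 14.62% at the closest, on day 1. Averaged over the 4 days the share was 7.50 percentage points higher in KO (exact permutation test within days, two-sided p = 1.25e-05, the smallest that the 80000 arrangements allow). Shares were tested for 4 genes and these p-values are not adjusted. On days 0 and 1, Pfkm TPM overlapped between genotypes and Pfkl was lower in KO, so the larger share there went with a smaller family total: 194.2 TPM in KO against 252.7 in WT on day 0, and 325.0 against 403.7 on day 1. The family total was smaller in KO on day 3 as well, at 374.3 TPM against 452.1 in WT. On day 6 it was 530.9 TPM in KO and 453.0 in WT. From day 0 to day 6 the total grew 1.79-fold in WT, where Pfkm made up 25.0% of the increase, and 2.73-fold in KO, where it made up 43.1%. The Pfkl share in KO was 47.37%, 51.3%, 52.25% and 33.27% on days 0, 1, 3 and 6, against 54.26%, 51.65%, 53.49% and 48.26% in WT, and the genotypes overlapped on days 1 and 3. In the KO libraries of day 6 the 3 genes thus stood close together, at 176.3 TPM for Pfkm, 176.7 for Pfkl and 177.9 for Pfkp, within their spread of 9.15 to 12.21 (SD).

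**Figure D2:**
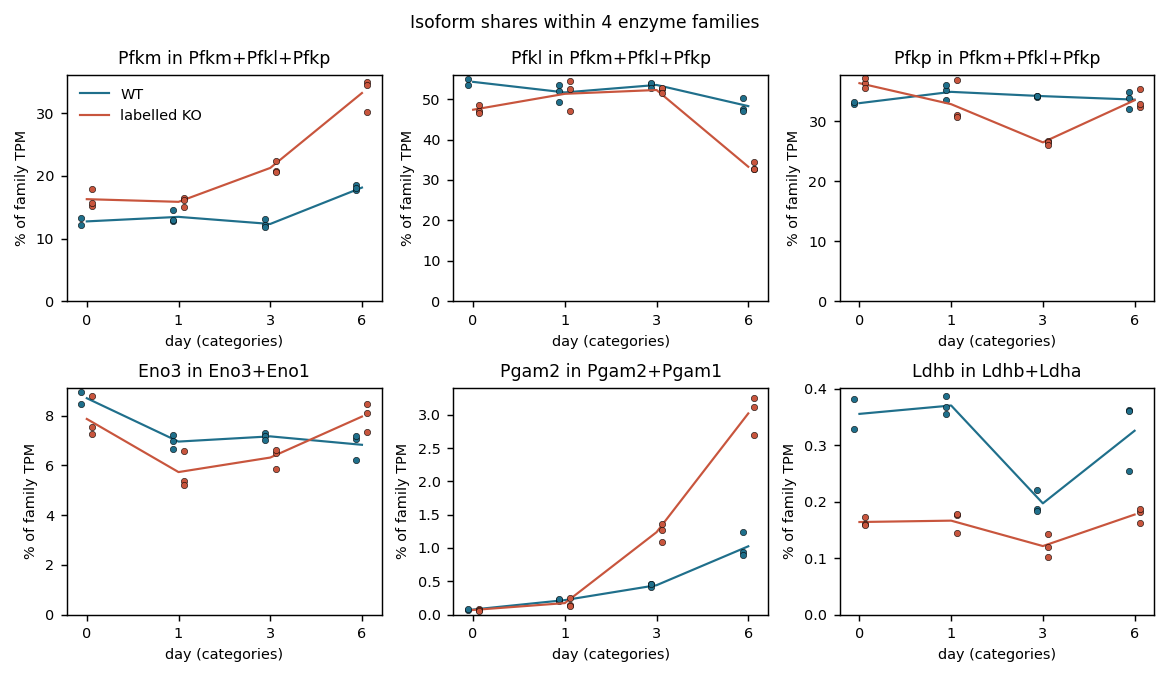
Share of each isoform in its family's summed TPM (vertical axes, percent, from 0, scaled per panel) by day (horizontal axis, days as categories); points are libraries, lines join group means, blue is WT and red is labelled KO. The Pfkm share was higher and the Ldhb share lower in KO on all 4 days, the Pgam2 share was higher in KO on days 3 and 6, and the Eno3 share changed its order between genotypes from day 3 to day 6.

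Aldoa, the muscle aldolase and one of the most abundant transcripts among the 10 (chromosome 7, 126795234 to 126800994, minus strand), rose in both genotypes. It stood at 2051.92 and 1872.39 TPM in WT and at 2028.52, 1854.76 and 1532.79 in KO on day 0, where the groups overlapped. On day 6 it stood at 3990.46, 3857.71 and 3719.54 in WT and at 4568.71, 4977.75 and 5077.35 in KO, where they did not. The log2FC was 0.46 (adjusted p = 0.000871) on day 6, 0.06 on day 3 and -0.06 on day 0. On day 1 Aldoa was lower in KO (log2FC -0.26, adjusted p = 0.0471), a call that was lost without replicate 2 of KO day 1 (log2FC -0.18, adjusted p = 0.164) and with the replicate number as a block (adjusted p = 0.0614). In WT nearly all of the gain was present by day 1, at 3614 TPM on average against 3856 on day 6, whereas in KO the mean went from 2937 on day 1 through 3654 on day 3 to 4875 on day 6.

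The enolases showed a different picture, since Eno3, the muscle enolase, was not higher in KO on any day. Its TPM was 413.51 and 410.73 in WT against 315.15, 312.31 and 338.04 in KO on day 0. On day 1 it was 403.81, 386.8 and 370.81 in WT against 234.2, 266.8 and 244.71 in KO, and on day 3 it was 423.31, 422.31 and 430.71 against 296.39, 278.44 and 283.57. All KO libraries lay below all WT libraries on these 3 days. The log2FC was -0.30 (SE 0.08, adjusted p = 0.013) on day 0, -0.60 (SE 0.07, adjusted p = 8.99e-07) on day 1 and -0.42 (SE 0.07, adjusted p = 7.15e-05) on day 3. The day 0 call was lost without KO replicate 1 (adjusted p = 0.0804), without WT replicate 1 (adjusted p = 0.0783) and without WT replicate 2 (adjusted p = 0.128). On day 6 the groups overlapped, at 315.43, 347.49 and 335.4 in KO and 341.19, 390.74 and 392.71 in WT, with log2FC -0.04 (adjusted p = 0.697). Against day 0, Eno3 was never called higher: day 6 gave -0.33 in WT, which passed the test, and -0.07 in KO, which did not. In KO it was lower than on day 0 on day 1 (-0.54) and day 3 (-0.26), with group means of 321.8, 248.6, 286.1 and 332.8 TPM on days 0, 1, 3 and 6. In RefSeq the 5′ part of Eno3 overlaps Pfn1, the abundant actin-binding profilin gene, and use of strand in the counting is not given in the sources used here. Pfn1 stood at 3129 TPM in WT and 2877 in KO on day 0 and at 1881 and 1419 on day 6, and its part in the Eno3 values was not tested.

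Eno1, the ubiquitous enolase (chromosome 4, 150236708 to 150248879, plus strand), made up most of the enolase transcripts in every group and was lower in KO from day 1. On day 6 it stood at 3986.33, 3763.88 and 3806.11 TPM in KO against 5138.49, 5141.69 and 5070.47 in WT. The log2FC was -0.13 (adjusted p = 0.39) on day 0, -0.30 (adjusted p = 0.00424) on day 1, -0.23 (adjusted p = 0.0232) on day 3 and -0.29 (adjusted p = 0.00595) on day 6. Its transcript shares 70.5% of its 50-base words with Eno1b, so how reads were divided between them is uncertain, and Eno1b was listed at 148.6 to 236.2 TPM as group means. The Eno3 share of the pair was 8.70% ± 0.33 in WT and 7.87% ± 0.83 in KO on day 0, 6.96% ± 0.29 and 5.73% ± 0.75 on day 1, 7.17% ± 0.14 and 6.31% ± 0.40 on day 3, and 6.83% ± 0.52 and 7.96% ± 0.57 on day 6. The groups overlapped on day 0, and KO lay below WT without overlap on days 1 and 3 and above it on day 6. Averaged over days the difference was -0.44 percentage points (exact permutation test within days, two-sided p = 0.159), which averages values of opposite sign.

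Pgam2, the muscle mutase, had the steepest rise of the 10 genes in both genotypes. It stood at 0.88 and 0.88 TPM in WT and 0.86, 0.67 and 0.48 in KO on day 0, and at 2.69, 2.73 and 2.87 in WT and 2.48, 1.44 and 1.35 in KO on day 1. On day 3 it stood at 6.56, 5.82 and 6.73 in WT and 15.78, 13.4 and 15.25 in KO, and on day 6 at 17.41, 12.67 and 12.52 in WT and 31.75, 36.48 and 35.16 in KO. In TPM, all KO libraries thus lay below all WT libraries on days 0 and 1 and above them on days 3 and 6. In CPM (counts scaled for depth) the groups overlapped on days 0 and 1 and stayed apart on days 3 and 6. On day 0, KO replicate 1 stood at 0.408 CPM, between the WT libraries at 0.396 and 0.417. On day 1, KO replicate 1 stood at 1.128 CPM, above WT replicate 1 at 1.1045. The genotype difference did not pass the test on day 0 (log2FC -0.33, SE 0.43, adjusted p = 0.713) or day 1 (-0.61, SE 0.26, adjusted p = 0.0673). It was 1.37 (SE 0.18, adjusted p = 2.05e-06) on day 3 and 1.41 (SE 0.17, adjusted p = 2.76e-07) on day 6. Day 6 over day 0 gave 3.82 (SE 0.29) in WT and 5.55 (SE 0.24) in KO, values that rest on 5 to 9 estimated counts per library on day 0.

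Pgam1, the broadly expressed mutase, stayed the main isoform throughout. It stood at 1384.65, 1330.27 and 1398.43 TPM in WT and 1148.3, 1088.01 and 1091.04 in KO on day 6. The count-based difference passed the test on day 1 alone (log2FC -0.27, adjusted p = 0.00738), although on the TPM scale KO lay below WT without overlap on all 4 days. Its transcript shares 41.5% of its 50-base words with the pseudogene Pgam1-ps2, and how reads were divided between them is not known. The Pgam2 share of the pair went from 0.0752% ± 0.0065 to 1.02% ± 0.19 in WT and from 0.0687% ± 0.013 to 3.02% ± 0.29 in KO between day 0 and day 6. Averaged over the 4 days it was 0.685 percentage points higher in KO (exact permutation test within days, two-sided p = 0.00435), with KO above WT on days 3 and 6 and overlapping it on days 0 and 1. Even on day 6 in KO, Pgam2 made up 18.8% of the family's gain since day 0, and the family total had grown 1.19-fold, against 1.18-fold in WT.

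The lactate dehydrogenases were dominated by Ldha, the muscle-type subunit (chromosome 7, 46842274 to 46855627, plus strand). Ldha stood at 2370.16, 2316.78 and 2363.48 TPM in KO and 2281.3, 2131.97 and 2128.54 in WT on day 6, with log2FC 0.23 (adjusted p = 0.0282). That call was lost without replicate 3 of WT day 6 (log2FC 0.12, adjusted p = 0.269) and on log2(TPM + 1) (0.11, adjusted p = 0.292, limma), and on days 0, 1 and 3 the difference was -0.04, -0.02 and 0.08. Ldha thus had no difference that held in every fit. Its transcript shares 16.6% of its 50-base words with other genes, and that of Aldoa 13.5%. Ldhb (chromosome 6, 142490249 to 142507957, minus strand), the heart-type subunit, was lower in KO on all 4 days, the only one of the 10 genes called on each day. It stood at 3.21, 2.98 and 2.42 TPM in KO against 6.67 and 6.61 in WT on day 0, and at 4.32, 3.76 and 4.43 in KO against 5.81, 7.76 and 7.68 in WT on day 6. The log2FC was -1.14 (SE 0.19, adjusted p = 0.000152) on day 0, -1.15 (adjusted p = 1.37e-05) on day 1, -0.60 (adjusted p = 0.0108) on day 3 and -0.65 (adjusted p = 0.00333) on day 6. These are low levels, with 38 to 122 estimated counts per library, and without replicate 2 of KO day 3 the day 3 value was -0.47 (adjusted p = 0.0642). The Ldhb transcript shares 27.0% of its 50-base words with Gm5514. The Ldhb share of the pair was 0.355% ± 0.037 in WT and 0.164% ± 0.0078 in KO on day 0 and 0.325% ± 0.062 and 0.177% ± 0.013 on day 6. Every KO library lay below every WT library on each day, with a mean difference of -0.155 percentage points (exact permutation test within days, two-sided p = 1.25e-05, the smallest possible).

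Counted over the 10 genes, Pfkp and Aldoa were the only ones called in both directions in KO against WT. On day 0, 3 were lower and none higher in KO, where 10.1% of all tested genes were lower and 7.36% higher, and 4 had an unadjusted p under 0.05. With 1 library left out the day 0 count ranged from 1 to 3, and it was 1, Ldhb, without WT replicate 1. On day 1, 7 were lower and none higher, where 19.2% of all genes were lower and 22.9% higher, and 8 had an unadjusted p under 0.05. Without replicate 2 of KO day 1, 5 were lower. The summed proliferation markers Mki67, Top2a and Ccnb1 were at 208.3 to 309.1 TPM in KO and 129.4 to 135.6 in WT on that day, and the myotube marker sum was at 162.4 to 212.4 in KO and 53.68 to 100 in WT. On day 3, 4 were lower (19.2% of all genes) and 2 higher (24%). Both marker sums were again higher in every KO library on day 3, at 274.1 to 328.5 TPM against 139.0 to 183.7 for proliferation and 3799 to 6876 against 2397 to 2586 for myotubes. On day 6, 2 were lower (20.8%) and 5 higher (22%), with the proliferation sum at 119.6 to 139.8 TPM in KO and 83.12 to 114.9 in WT and the myotube sum as given above. The part of these markers in the differences was not tested. The median log2FC of the 10 genes was -0.20, -0.29, -0.14 and 0.10 on days 0, 1, 3 and 6, beside -0.0011, 0.03, 0.04 and 0.0037 over all tested genes.

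**Figure D3:**
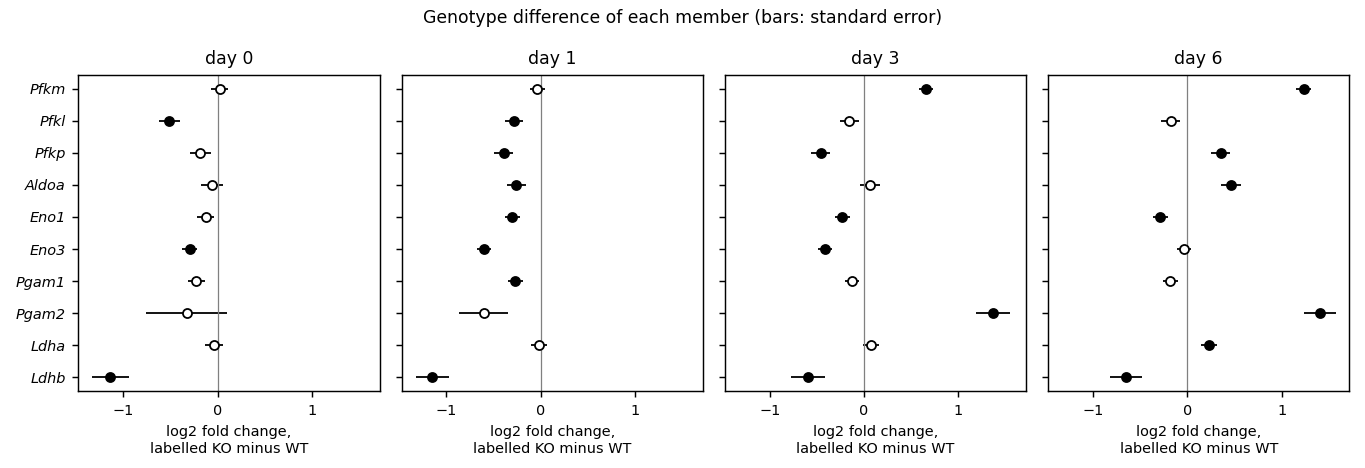
Log2 fold change of labelled KO over WT from the edgeR fit (horizontal axes) for each of the 10 genes (vertical axis) on days 0, 1, 3 and 6; bars are 1 standard error, and filled points have an adjusted p under 0.05. On day 1 every called gene lies left of 0, and on day 6 the called genes lie on both sides, with Pfkm at 1.23 and Pgam2 at 1.41 farthest to the right.

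Against day 0, 5 to 7 of the 10 genes were higher at each time. In WT, 5 were higher on day 1 (27.1% of all genes), 6 on day 3 (29.2%) and 5 on day 6 (32.6%), and 1 was lower each time (27.6%, 29% and 31.1%). In KO, 5 were higher on day 1 (27.2%), 7 on day 3 (30.4%) and 7 on day 6 (36.6%), with 1, 1 and 0 lower (25.2%, 27.2% and 33.5%), and on day 6 all 7 with an unadjusted p under 0.05 were the ones called higher. Pfkm, Pfkl, Pfkp, Aldoa and Pgam2 were higher at all 3 times in both genotypes. Eno1 did not pass the test against day 0 at any time in either genotype. Comparisons with day 0 within a genotype share the day 0 libraries, so they are not independent of each other.

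Whether the change from day 0 itself differed between genotypes was tested with an interaction term. On day 1 no member passed the edgeR test (2.64% of all genes passed upward and 1.31% downward), 1 had an unadjusted p under 0.05, and DESeq2 called 1, Eno3. On day 3 the gain of Pfkm was larger in KO by 0.64 (SE 0.12, adjusted p = 0.00064) and that of Pgam2 by 1.69 (SE 0.48, adjusted p = 0.0224), 2 genes where 6.65% of all genes passed in that direction and 4.06% in the other. On day 6, 4 genes passed upward, where 7.54% of all genes did and 5.42% passed downward: Pfkm (1.21, SE 0.12, adjusted p = 9.54e-08), Pgam2 (1.73, SE 0.47, adjusted p = 0.0149), Pfkp (0.54, SE 0.15, adjusted p = 0.0179) and Aldoa (0.52, SE 0.15, adjusted p = 0.0256). Only the Pfkm calls remained in every fit with a library left out. Without WT day 0 replicate 1 the Pgam2 value on day 6 was 1.72 (adjusted p = 0.0807), and without WT day 0 replicate 2 it was 1.70 (adjusted p = 0.0935). Without replicate 3 of KO day 0 the day 3 value of Pgam2 was 1.505 (adjusted p = 0.0595), and Pfkp on day 6 was 0.39 and still called (adjusted p = 0.0353). Pfkp was no longer called without WT day 0 replicate 1 (adjusted p = 0.175), and Aldoa was not called without WT day 6 replicate 3 (0.38, adjusted p = 0.0937).

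The rest of the pathway was read from lists of other glucose-metabolism genes. Of 14 other glycolytic enzymes, 10 passed the filter and were tested. None was higher in KO on days 0, 1 and 3 (7.36%, 22.9% and 24% of all genes), where 2, 7 and 7 were lower beside 10.1%, 19.2% and 19.2% of all genes, and on day 6 (22% of all genes higher, 20.8% lower) the only call was Hk2, the muscle hexokinase, at log2FC 0.53 (adjusted p = 0.000338). Hk2 had been lower in KO on day 1 (-0.45, adjusted p = 0.00219) and day 3 (-0.52, adjusted p = 0.000491). The median log2FC over the 10 tested enzymes was -0.21, -0.39, -0.36 and 0.05 on the 4 days, beside the medians of all genes given above. As among the members, the lower calls were most frequent on day 1, and here they were as frequent on day 3.

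Of 17 tested genes of glycogen and glucose supply, none was higher in KO on days 0 and 1 (7.36% and 22.9% of all genes), where 5 and 7 were lower (10.1% and 19.2%). On day 3, 4 were higher (24% of all genes) and 7 lower (19.2%), and on day 6, 5 were higher (22%) and 2 lower (20.8%), with a median log2FC of 0.11 on day 6. Pygm, the muscle glycogen phosphorylase, stood at 67.41 to 76.95 TPM in KO and 13.18 to 16.3 in WT on day 6 (log2FC 2.42, adjusted p = 1.23e-13), and Pygb, its brain-type counterpart, at 19.45 to 21.71 and 38.78 to 44.59 (log2FC -0.85, adjusted p = 1.27e-09). Slc2a4, the insulin-responsive glucose carrier, was higher on day 6 (log2FC 1.65, adjusted p = 1.22e-05), and Pgm1, a phosphoglucomutase gene, was lower (-0.35, adjusted p = 0.000497).

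Of 10 tested regulators of glycolytic flux, 1 was higher and 2 lower in KO on day 6, beside 22% and 20.8% of all genes, with a median log2FC of 0.01. On day 0, 1 was higher and 2 lower (7.36% and 10.1% of all genes), on day 1, 3 and 2 (22.9% and 19.2%), and on day 3, 0 and 3 (24% and 19.2%). Pfkfb3, which makes the allosteric activator of phosphofructokinase, was lower by more than any other gene of this list, at 2.94 to 4.5 TPM in KO against 9.24 to 13.28 in WT (log2FC -1.54, adjusted p = 6.89e-10). It was also lower on day 1 (-1.36, adjusted p = 2.89e-08) and day 3 (-2.03, adjusted p = 2.35e-11), so that Pfkfb3 and Pfkm differed in opposite directions on days 3 and 6. Hif1a, the hypoxia-responsive factor, was lower on day 6 (-0.29, adjusted p = 0.00799), and Pdk2, which restrains pyruvate dehydrogenase, was higher (0.55, adjusted p = 0.00118).

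Of 9 tested genes of pyruvate and lactate handling, 5 were higher and 3 lower in KO on day 6, beside 22% and 20.8% of all genes, with a median log2FC of 0.46. On day 0, 0 were higher and 3 lower (7.36% and 10.1% of all genes), on day 1, 3 and 3 (22.9% and 19.2%), and on day 3, 5 and 2 (24% and 19.2%). Slc16a3, the lactate exporter of glycolytic muscle, was lower on all 4 days, at -1.68 (adjusted p = 6.93e-07) on day 0 and -1.20 (adjusted p = 5.74e-06) on day 6, and Slc16a1, another monocarboxylate carrier, was lower too (day 6 log2FC -0.41, adjusted p = 9.09e-05). Gpd1, the cytosolic glycerol-3-phosphate dehydrogenase, stood at 5.44 to 6.72 TPM in KO and 0.22 to 0.25 in WT on day 6 (log2FC 4.86, adjusted p = 2.68e-11). Got1, the cytosolic aspartate aminotransferase, was higher by 0.91 (adjusted p = 8.34e-11).

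**Figure D4:**
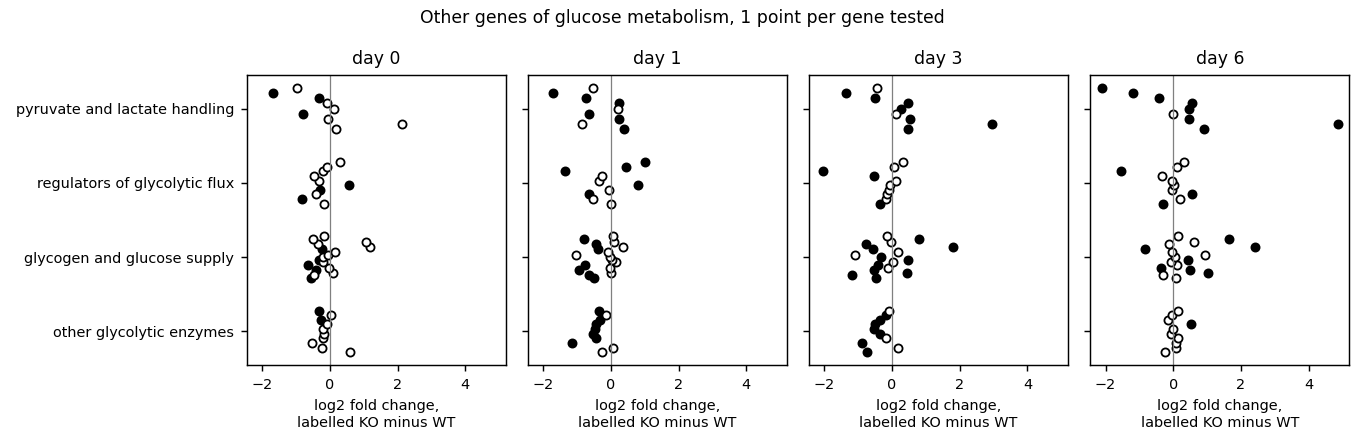
Log2 fold change of labelled KO over WT (horizontal axes, shared scale) for each tested gene of 4 lists of glucose-metabolism genes (vertical axis) on days 0, 1, 3 and 6; each point is a gene, and filled points have an adjusted p under 0.05. The other glycolytic enzymes lie mostly left of 0 on days 1 and 3 and around 0 on day 6, with Hk2 the only filled point there, and the point farthest right on day 6 is Gpd1 at 4.86.

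For the muscle isoforms, the genes with the most similar profile of log2 CPM over the 8 group means were found among 10248 candidates. Those nearest Pfkm were Il6st (r = 0.99), Rnf11 (0.99) and Bin1 (0.98), those nearest Pgam2 were Ifnar2, Cox14 and Mypn (each 0.99), and those nearest Eno3 were Pim2 (0.97), Lsm11 (0.95) and AK208460 (0.95). The lists did not share a gene. Among the members, Pfkm and Pgam2 had r = 0.94 over the 8 group means, Aldoa had r = 0.90 with Pfkm and 0.92 with Pgam2, and Eno3 had r = -0.28 with Pfkm and -0.17 with Pgam2. These 8 points share the time course and are given as a description.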

How the data were processed

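The 23 libraries are RNA-seq of poly(A) RNA from C2C12 cells. The authors deposited estimated counts per gene symbol, as whole numbers, and TPM for the same genes; per the submitters' processing notes, Bowtie2 and RSEM were used with mm10, and their versions, the gene models and whether strand was used are not given in the sources used here. TPM keeps no depth, so counting precision comes from the estimated counts (total 22197606 to 23684077 per library), and replicate spread was used as the error.

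The members and all gene lists were chosen with earlier results of these data known. Estimated counts (rounding changed 0 values) were filtered with filterByExpr (minimum count 10, minimum total 15), scaled by TMM and fitted with edgeR 4.0.16 in R 4.3.3 as a group-means model over all 23 libraries. P-values of 13 contrasts were adjusted by Benjamini-Hochberg over 14187 genes, with a threshold of 0.05. The lone WT day 0 library left when the other was omitted was assumed to vary like the other groups. The fit was tested on simulated data. Isoform shares were computed from TPM (Python 3.11.15, NumPy 2.4.6) and tested by enumerating all 80000 rearrangements of genotype within days. Log2 CPM used a prior count of 2.

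Named genes were the 10 members, Runx1, from each pathway list up to 2 genes with the most positive and 2 with the most negative day 6 log2FC of KO over WT (adjusted p under 0.05 and a group mean of at least 5 CPM), and the 3 genes most like Pfkm, Eno3 and Pgam2 (mean of at least 5 CPM). Markers, overlapping genes and near copies are named for their annotation. Promoter sequences and loci came from RefSeq, GRCm38.p6. The 50-base word sharing came from GENCODE mouse transcripts, with the longest protein-coding transcript of each member searched against the transcripts of all other genes. The labels number replicates 1 to 3 in each group, without saying that equal numbers share a culture; deviations of same-numbered libraries correlated between -0.24 and 0.053 across genes, so the numbers were not taken to pair them. Alternatives were RLE scaling, library size alone, no filter, DESeq2 1.42.0, limma 3.58.1 on log2(TPM + 1) and log2(TPM + 0.1), only the groups compared, the replicate block and omission of each library.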

Additional observations from a re-analysis of the deposited data

Results flagged for a closer look

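The change of 4 members from growth medium differed between the genotypes, by a test of that difference in the edgeR fit with Benjamini-Hochberg adjustment over all tested genes. For Pfkm the difference was 0.64 (log2, KO minus WT; SE 0.12, adjusted p = 0.00064) on day 3 and 1.21 (SE 0.12, adjusted p = 9.54e-08) on day 6. For Pgam2 it was 1.69 (SE 0.48, adjusted p = 0.0224) on day 3 and 1.73 (SE 0.47, adjusted p = 0.0149) on day 6. For Pfkp it was 0.54 (SE 0.15, adjusted p = 0.0179) and for Aldoa 0.52 (SE 0.15, adjusted p = 0.0256), both on day 6. All 3 KO libraries lay above all WT libraries on day 6 for Pfkm, Pgam2 and Aldoa on the TPM scale, but not for Pfkp. With 1 library left out the number of genes called on day 6 ranged from 1 to 5: the Pgam2, Pfkp and Aldoa calls of that day were each lost without WT day 0 replicate 1 (adjusted p = 0.0807, 0.175 and 0.131), and the Pfkm calls of both days were kept in every such fit. The day 3 call of Pgam2 was lost without KO day 0 replicate 3 (adjusted p = 0.0595), WT day 0 replicate 1 (adjusted p = 0.105) or WT day 0 replicate 2 (adjusted p = 0.129).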

How the results depend on the processing

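The counts of members called stayed within 1.5 times of the reported count under every alternative other than omission of a library, except that DESeq2 called 1 member in the day 1 interaction against 0. This was Eno3 (log2 difference -0.34, adjusted p = 0.0349, against -0.31 and 0.137 in edgeR). With 1 library left out, the count ranged from 1 to 3 for KO against WT on day 0 (1 without WT day 0 replicate 1), from 1 to 2 for the day 3 interaction (1 without either WT day 0 library) and from 1 to 5 for the day 6 interaction. The day 6 count was 1 without WT day 0 replicate 1 and 2 without WT day 0 replicate 2 or WT day 6 replicate 3. Without KO day 0 replicate 3, Pfkp passed downward in the day 3 interaction (-0.43, adjusted p = 0.0223), and without WT day 6 replicate 2, Eno3 passed upward in the day 6 interaction (0.35, adjusted p = 0.0243). The day 6 interaction of Pfkp was no longer called on log2(TPM + 1) (0.47, adjusted p = 0.0931) or log2(TPM + 0.1) (0.48, adjusted p = 0.0989). Single differences of KO against WT were also counted per gene, day and alternative, omission of libraries aside. Of these, 22 gained a call, 8 lost one and 282 kept their sign and their side of the threshold. The replicate block changed no count of calls by more than 1.5 times; it ended 1 call, Aldoa on day 1 (-0.26, adjusted p = 0.0614). No isoform share changed its direction or its side of the threshold; with 1 library left out the mean Pfkm difference ranged from 7.28 to 7.88 percentage points.

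Values that turned sign were all uncalled as reported and in the alternative. Pfkm on day 0 was -0.0374 by library size alone, -0.035 on log2(TPM + 1) and -0.036 on log2(TPM + 0.1). On the same TPM scales Aldoa on day 3 was -0.0839 and -0.084, and Ldha on day 3 was -0.0733 on both. With 1 library left out, Aldoa on day 0 ranged from -0.109 to 0.0429 (highest without KO replicate 3) and on day 3 from -0.022 (without WT replicate 2) to 0.1203. Ldha ranged from -0.111 to 0.0586 on day 0, above 0 without KO replicate 3 (0.0501) or WT replicate 1, and from -0.0906 to 0.0116 on day 1, above 0 without KO replicate 1. Pfkm on day 1 ranged from -0.0808 to 0.0005 (without WT replicate 2), and Eno3 on day 6 from -0.122 to 0.0525 (without WT replicate 2). On log2(TPM + 0.1) the median of all genes shifted to -0.11 on day 3 and -0.12 on day 6, so small differences on that scale are relative to it. The cause of these changes was not tested. Depth limits Pgam2 on day 0 (5 to 9 counts per library) and Ldhb (38 to 122).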
